A study of Homo sapiens with 18 samples.

Results

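The data described here are the 9 RNA sequencing libraries, of 18 in the series, made from cells that had received DMSO, the solvent control, for 24 h. They were chosen by their labels alone: 3 carry the name of the line MHCC-97H and were set against 6, of which 3 carry the name MDA-MB-231 and 3 the name HCT-116. The other 9 libraries, from cells given 20 nM H3B-8800, a small molecule that acts on the splicing factor SF3B1, were used as a check on single results. All 9 control libraries are labelled wild type (WT), from cells grown in high-glucose DMEM with fetal bovine serum, and their total RNA was extracted with Trizol. MHCC-97H is known as a metastatic hepatocellular carcinoma line, MDA-MB-231 as a breast cancer line without hormone receptors and HCT-116 as a colorectal cancer line. Nothing in the sample descriptions says that the libraries of a group are separate cultures, so p-values measure the spread between these samples, which may be technical.

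Hepatocytes make most plasma proteins, the urea cycle enzymes and the bile acid enzymes, under a set of transcription factors that includes HNF4A and FOXA2. Enterocytes use part of the same set with CDX2, and make villin, galectins and CEACAM surface proteins. Tumour lines keep parts of the program of their tissue, and breast lines of the basal type are known for vimentin and for low E-cadherin.

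Totals ran from 28232315 to 38630831 counts per library, and 11781 to 11939 genes reached a level of 1 in counts per 1e6 (CPM). Levels below are CPM scaled by the trimmed mean of M values (TMM), as mean ± SD with n = 3 per label unless each library is given. Differences are log2 fold changes of the MHCC-97H label minus the mean of the other labels, with the standard error (SE) and the Benjamini-Hochberg adjusted p of edgeR's quasi-likelihood test. A gene is called at an adjusted p under 0.05, and counts of members use calls of at least 2-fold. Of 13934 genes tested, 11876 (85.2%) were called and 7861 (56.4%) were called at 2-fold or more, 3629 higher (26.0%) and 4232 lower (30.4%), with a median log2 fold change of -0.08. Counts of list members below are to be read against these shares of higher and lower genes. Against a single label, 83.3% were called for MDA-MB-231 and 83.1% for HCT-116, and 80.5% were called in both of these in 1 direction. Libraries named MDA-MB-231 hardly differed from those named HCT-116, with 6 genes (0.0431%) called between them and 626 (4.49%) at an unadjusted p under 0.05. Across genes, log2 levels of libraries of these labels correlated at 0.99 to 0.993, as within the labels (0.989 to 0.993), against 0.704 to 0.726 for either label with MHCC-97H. The chi-square of the counts per degree of freedom was 23.4 to 46.2 for pairs of libraries across these labels, 22.3 to 48.5 within the HCT-116 label and 22.6 to 28.2 within the MDA-MB-231 label. HCT-116 replicate 2 gave the upper values, and without it pairs across the labels reached 31.5. From the genes called and the correlations the 6 libraries are read as 1 profile, and their agreement is not counted as that of separate lines. Which line either profile comes from was not tested.

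Most liver genes were low or at 0 in the libraries labelled MHCC-97H, and several were present in the other 6. Of 36 secreted liver proteins 22 passed the filter on low counts, 17 of them lower and 3 higher at 2-fold, with a median of -7.57 (-4.73 with members at 0 counts set at their bound). Albumin, ALB (chromosome 4, 73397114 to 73421412), had 0 counts in each library labelled MHCC-97H. It was at 20.8, 16.7 and 17.2 CPM in the MDA-MB-231 libraries and at 20.8, 25.1 and 20.3 CPM in the HCT-116 libraries. The ranges do not overlap, and ALB was at least 589-fold lower under the MHCC-97H label, with 3 counts over its libraries (0.0342 CPM, counting error only) as the bound. Transferrin, TF, which carries iron in plasma, was at 0.0268 ± 0.0465 CPM (2 counts in all) against 158 ± 5.8 and 170 ± 1.42 CPM in the MDA-MB-231 and then the HCT-116 libraries. The ferroxidase ceruloplasmin, CP (0.614 CPM against 627 and 686), the inter-alpha-trypsin inhibitor chain ITIH2 (0 against 178 and 172) and the apolipoprotein APOH (0 against 21 and 22.6) ran the same way. In bulk RNA, fewer cells making a transcript and less of it per cell cannot be told apart. The 3 members of this list that were higher were the complement component C3, at 1370, 1360 and 1400 CPM against 5.27 to 7.57 CPM in the other 6 libraries (7.74, SE 0.06, adjusted p = 2.1e-12), the retinol carrier RBP4 (1.76) and the lipid carrier APOM (2.72, at 2.34 CPM).

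Hepatocyte enzymes were mostly lower under the MHCC-97H label. Of 33 listed, 17 were tested, 12 lower and 3 higher (median -6.54, or -4.63 at the bounds). The higher members were PCK1 (1.31 CPM against 0 and 0), CPS1 and ASS1. CPS1, the first enzyme of the urea cycle, was at 291, 212 and 235 CPM under the MHCC-97H label and between 0.146 and 0.631 CPM in the other 6 libraries (9.21, SE 0.25, adjusted p = 1.7e-09). ASS1, the argininosuccinate synthase of the same cycle (chromosome 9, 130444929 to 130501274), was at 1390, 1410 and 1470 CPM against 1.16 to 2.45 CPM (9.59, SE 0.13, adjusted p = 3.7e-11). For both genes every library labelled MHCC-97H lay above every other library. Arginase ARG1, the last step of the cycle, was at 0 counts there and at 0.216 and 0.484 CPM in the others. Enzymes of bile acids and of tyrosine breakdown were low: CYP27A1 was at 0.085 CPM against 127 and 132, and BAAT and HGD had 0 counts against 39.2 and 41.8 CPM and 20.7 and 20.1 CPM. OXCT1, which uses ketone bodies and which hepatocytes are known to lack, was at 184, 197 and 190 CPM under the MHCC-97H label and had 0 counts in the other 6 libraries, at least 14700-fold higher (bound of 3 counts over the 6 libraries, 0.013 CPM). The plot of lineage markers shows these levels by library.

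**Figure D1:**
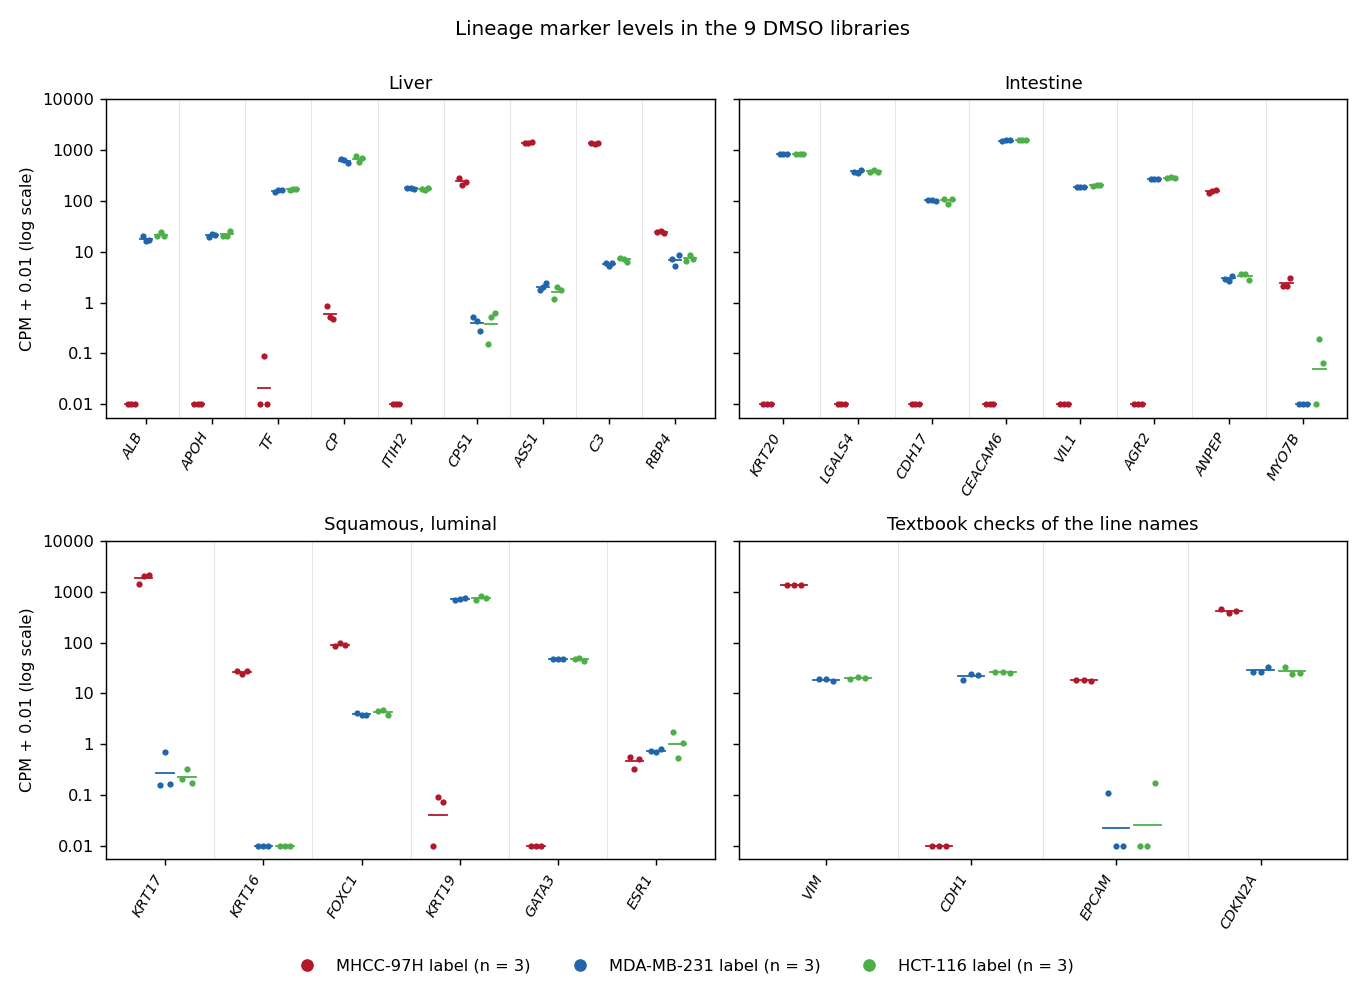
Level of each gene in each of the 9 DMSO libraries, on a log axis of CPM + 0.01, so that a point at 0.01 is a count of 0. Points are libraries, coloured by label, and short lines are means of the log values. Under the MHCC-97H label ALB and KRT20 sit at 0 while ASS1, C3, KRT17 and VIM are above 1000 CPM, and the other 2 labels overlap each other closely.

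Transcription factors of liver and gut were mostly lower under the MHCC-97H label. Of 33 listed, 26 were tested, 20 lower and 4 higher (median -2.57). FOXA2 had 0 counts against 26.6 to 80.1 CPM, a wide range with a low library under each of the other labels, and FOXA3 and PROX1, a factor of liver and lymphatic development, had 0 counts against 19.2 and 20.1 CPM and 32.8 and 42.5 CPM. HNF4A was present in both profiles, at 5.46 ± 0.61 CPM against 25 ± 4.43 and 33.6 ± 3 CPM (-2.41, SE 0.14, adjusted p = 1.4e-07). The bile acid receptor NR1H4 and the intestinal factor CDX2 had 0 counts against 7.51 and 7.71 CPM and 5.45 and 5.33 CPM. CEBPA (18.1 CPM against 63.4 and 64.7), GATA6 (11.8 against 67.4 and 66.4), FOXA1 (4.18 against 12.8 and 12.4) and CREB3L3 (0.044 against 93.6 and 92) were also lower. Factors higher under the MHCC-97H label included GATA4, at 36.3 ± 1.8 CPM against 4.66 and 4.13 CPM, ONECUT2 (18.6 against 3.36 and 3.26) and the epithelial factor KLF5 (360 against 122 and 124).

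Promoters were searched for the letters of the HNF4 and CDX motifs because HNF4A was lower under the MHCC-97H label and CDX2 had 0 counts. The window ran from 250 bases before to 50 after the start sites of RefSeq (GRCh38.p14), and the letters were searched on both strands without mismatches. The HNF4 letters CAAAGTCCA were in 13 of 3230 promoters of genes lower at 2-fold (0.402%), 6 of 2746 of genes higher (0.218%) and 31 of 10820 of all genes tested (0.287%), with no test of the difference. The CDX letters TTTATGG were in 1.89% of the promoters of lower genes, 1.42% of higher genes and 1.4% of all tested. The 4 lists of liver secreted proteins, hepatocyte enzymes, intestinal genes and liver and gut factors had 65 promoters in the tables, of which 2 held the HNF4 letters and 2 others the CDX letters. Shown are the stretches around these matches, with the match in capitals, on the strand of the gene.
AHSG: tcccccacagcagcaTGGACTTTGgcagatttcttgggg
MUC13: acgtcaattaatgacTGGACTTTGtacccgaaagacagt
AFP: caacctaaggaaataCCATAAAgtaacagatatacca
BAAT: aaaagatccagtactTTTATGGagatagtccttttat
AHSG (fetuin, a plasma protein made by the liver) and MUC13 (a mucin of the gut surface) carry the HNF4 letters, and AFP (the fetal counterpart of albumin) and BAAT (which joins bile acids to amino acids) the CDX letters. In AHSG, MUC13 and AFP the letters are on the opposite strand and so appear reversed and complemented. The stretches lie at chr3:186612866-186612904 for AHSG, chr3:124934779-124934817 for MUC13, chr4:73436116-73436152 for AFP and chr9:101384048-101384084 for BAAT. Their matches start at -179, -51, -90 and -196 from the start site. AHSG, AFP and BAAT had 0 counts in the MHCC-97H libraries, and AHSG was at 3.13 to 4.54 CPM in the other 6. MUC13 was at 2.87, 2.66 and 2.7 CPM against 14 to 16.1 CPM (-2.43, SE 0.08, adjusted p = 4.2e-09). A match is a description of letters and not a site of binding.

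Intestinal genes were mostly lower under the MHCC-97H label than in the MDA-MB-231 and the HCT-116 libraries. Of 39 in the table, 24 were tested, 20 lower and 3 higher (median -7.97, or -6.21 at the bounds), and 11 of the 24 had 0 counts under the MHCC-97H label. KRT20, the keratin of colon epithelium (chromosome 17, 40875941 to 40885227), was at 832, 845 and 839 CPM in the MDA-MB-231 libraries and 857, 858 and 829 CPM in the HCT-116 libraries, with 0 counts in the other 3 libraries, at least 24600-fold lower. CEACAM6, a carcinoembryonic surface protein, followed (0 against 1550 and 1600 CPM), as did the lectin LGALS4 (0 against 385 and 388), the secretory protein AGR2 (0 against 273 and 287), the brush border protein VIL1 (0 against 192 and 205, with 44.0% of its exons shared with USP37) and the cadherin CDH17 (0 against 103 and 103). So the libraries named for a breast line carried the intestinal genes at the level of those named for a colon line. The 3 higher members were the aminopeptidase ANPEP (155 CPM against 3.01 and 3.38), the brush border myosin MYO7B (2.43 against 0 and 0.0782) and the lectin LGALS3 (1.07 on the log2 scale).

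Genes of bile duct, pancreas and stomach were tested in 15 of 22 cases, with 9 lower and 3 higher (median -1.72, or -2.67 with a trend on GC content and length removed, which puts the median of all genes at 0.10). The keratins KRT19 and KRT7 differed in opposite directions. KRT19, a duct keratin, was at 0.0473 CPM against 717 and 755, while KRT7, also of ducts, was at 370 CPM against 7.6 and 6.42. The secreted phosphoprotein SPP1 had 0 counts against 151 and 157 CPM and the gastric annexin ANXA10 was at 5.97 CPM against 149 and 147. SOX17, a factor of endoderm and bile duct, was at 3.85 CPM with 0 counts in the other 6 libraries, and BICC1 was at 23.4 CPM against 0.531 and 0.759.

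More basal and squamous genes were higher than lower under the MHCC-97H label, and more luminal breast genes lower than higher. Of 15 tested basal genes (29 listed) 8 were higher and 2 lower (median 1.50, or 0.85 with the GC content and length trend removed). KRT17, a keratin of basal cells (chromosome 17, 41619441 to 41624842), was at 1400, 2080 and 2100 CPM, against 0.148 to 0.705 CPM in the other 6 libraries (12.73, SE 0.30, adjusted p = 7.9e-10). KRT16 was at 26.3 CPM with 0 counts elsewhere (both keratins have near-identical pseudogenes, which makes their levels uncertain), and the basal breast factor FOXC1 at 90.7 CPM against 3.84 and 4.27. SOX15, which lies on the 2-fold threshold, went the other way, as did COL17A1, a collagen of the hemidesmosome from the basement membrane list (0.708 CPM against 39.4 and 47.5). KRT5 and KRT14, the defining keratins of basal cells, did not pass the filter on low counts. Of 18 luminal genes tested (26 listed) 11 were lower and 4 higher (median -1.41). GATA3, the leading luminal factor, had 0 counts against 48 ± 0.462 and 47.4 ± 3.25 CPM. TFAP2C, also a luminal factor, was at 28 CPM in the MHCC-97H libraries and at 0 counts in the other 6.

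Single genes for which the named lines are known were then read one by one. MDA-MB-231 is known for abundant vimentin and for a deletion that takes CDKN2A. VIM (chromosome 10, 17228259 to 17237593) was at 19, 18.9 and 17.5 CPM in the libraries with that label and at 19.3, 20.9 and 20.1 CPM in the HCT-116 libraries, and at 1380, 1370 and 1340 CPM under the MHCC-97H label (6.14, SE 0.04, adjusted p = 1.5e-12). CDKN2A (chromosome 9, 21967753 to 21995301), an inhibitor of the cell cycle, was at 26.6, 25.9 and 33.4 CPM in the MDA-MB-231 libraries, so its transcript was present there. It was at 454, 378 and 416 CPM under the MHCC-97H label (3.89, SE 0.12, adjusted p = 4.0e-09), and its neighbour CDKN2B was at 133 CPM against 11 and 8.73. E-cadherin, CDH1, known to be low in MDA-MB-231, was at 18.4, 24 and 23.1 CPM under its label, and had 0 counts in each library labelled MHCC-97H, at least 698-fold lower. Steroid receptor genes, which MDA-MB-231 is known to lack, were low under every label. ESR1, the oestrogen receptor, was at 0.742 ± 0.0581 CPM there and at 1.1 and 0.458 CPM under the HCT-116 and MHCC-97H labels (-0.96, or 0.03 with the GC content and length trend removed), and PGR, the progesterone receptor, had 0 counts in all 9 libraries.

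HCT-116 is known as an epithelial line with EPCAM. EPCAM (chromosome 2, 47345158 to 47387601), the adhesion molecule of most simple epithelia, had counts in 1 of the 3 libraries with that label, at 0.165 CPM, and in 1 of the 3 labelled MDA-MB-231, at 0.0983 CPM. Under the MHCC-97H label it was at 18.1, 18.2 and 17.5 CPM, above all 6 (8.60, SE 0.51, adjusted p = 2.9e-07). Of the 11 mismatch repair genes 4 were lower at 2-fold and 0 higher, among the lower ones MLH3 (2.33 CPM against 14 and 13.2), PMS2 (6.48 against 14.1 and 13.6) and PCNA (51.5 against 133 and 126). The median of the list was -0.18. With a trend on GC content and length removed it was 0.33 and 3 members were higher at 2-fold. Thus VIM, CDKN2A and CDH1 went against the MDA-MB-231 name, EPCAM against the HCT-116 name, and ALB and most liver genes against the MHCC-97H name, as far as transcripts show. Not all genes went against a name. The liver genes CPS1, ASS1 and C3 were higher under the MHCC-97H label than in the other 6 libraries. Hepatocyte enzymes summed to 1720 to 1810 CPM there, with ASS1 at 1420 CPM, and to 264 to 295 CPM in the others. Still, 12 of the 17 tested enzymes were lower and 3 higher. The intestinal genes KRT20, CEACAM6, LGALS4, VIL1, CDH17 and CDX2 were present in the libraries named for the colorectal line HCT-116, and so was CDH1. The intestinal genes mark the tissue, and whether they mark that line was not tested. The same libraries also held the liver genes TF (170 CPM) and ALB (22.1 CPM), the luminal factor GATA3 (47.4 CPM) and SOX2 (70.4 CPM). ESR1 was low and PGR without counts under the MDA-MB-231 label, as under every label.

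**Figure D2:**
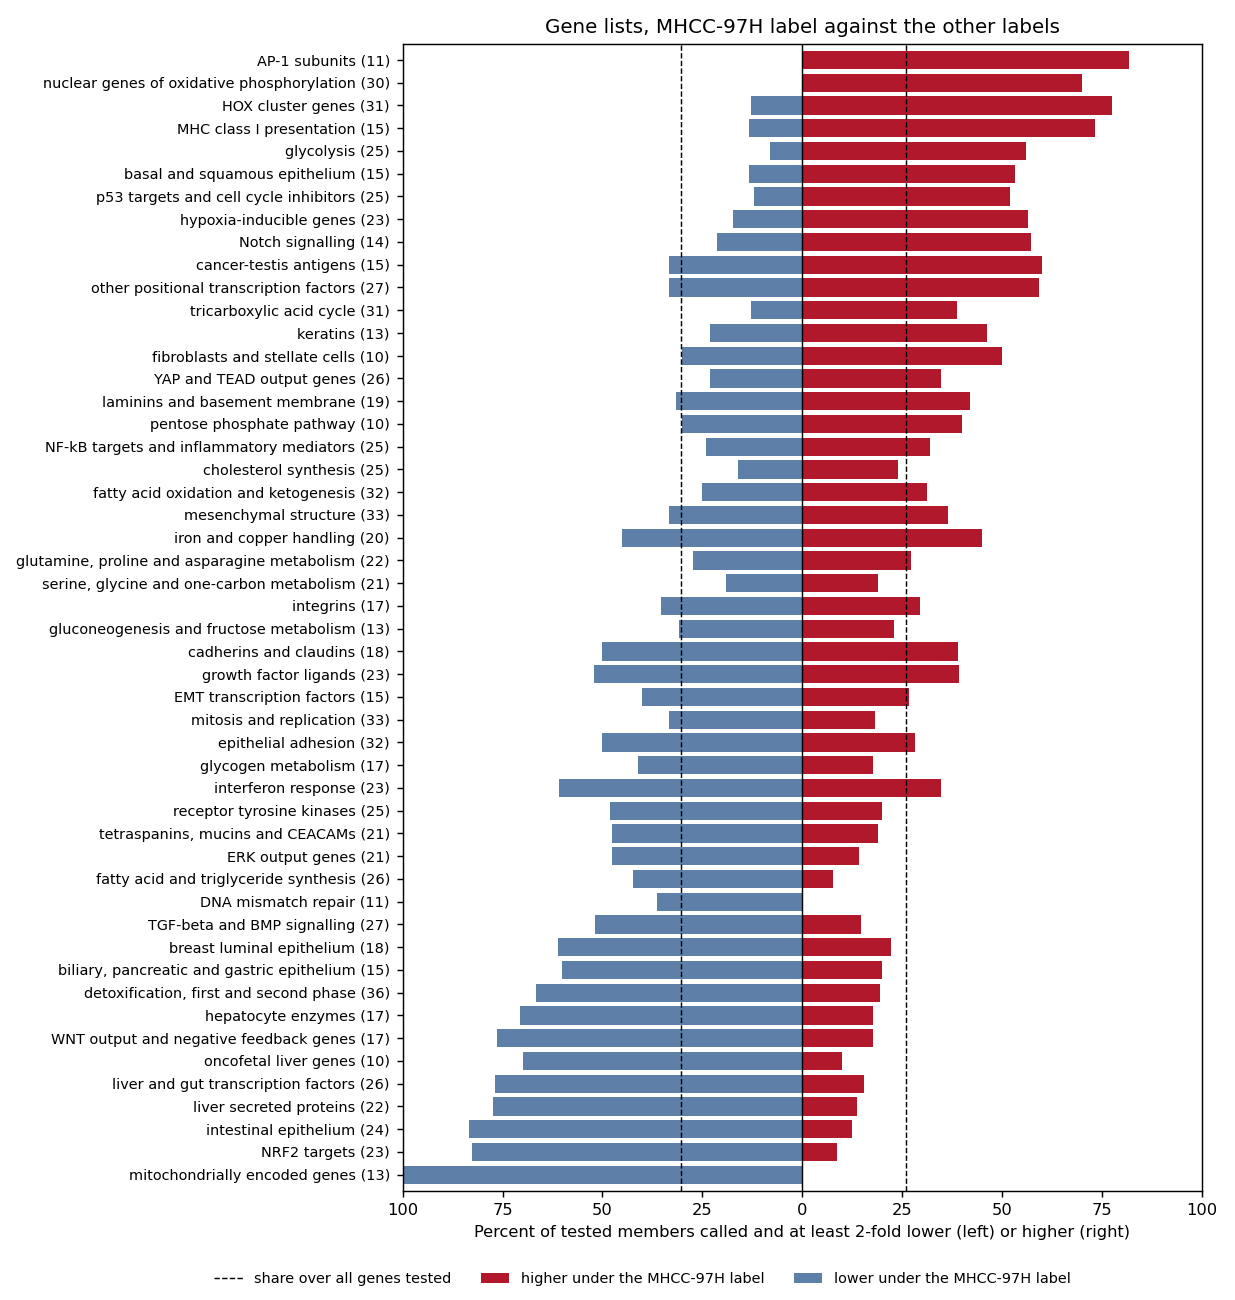
For each gene list with at least 10 tested members (number in brackets), the percent called and at least 2-fold higher (right) or lower (left) under the MHCC-97H label. Dashed lines are the shares over all genes tested, 26.0% higher and 30.4% lower. AP-1 subunits, HOX genes and MHC class I genes lie at the upper end, and mitochondrially encoded genes, NRF2 targets and the liver and gut lists at the lower end.

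Neither profile was epithelial or mesenchymal throughout. Mesenchymal structural genes gave 12 higher and 11 lower of 33 tested, median -0.13 (0.07 with the GC content and length trend removed), close to the share over all genes. The collagen chain COL5A1 (chromosome 9, 134641774 to 134844843) was at 4780, 4750 and 4930 CPM under the MHCC-97H label and had 0 counts in the other 6 libraries, at least 371000-fold higher. COL4A1 (147 CPM against 0), COL4A2 (302 against 1.95 and 1.8), COL1A1 (40.7 against 0.0609 and 0.0514) and the lysyl oxidase LOXL2 (2600 against 305 and 326) ran with it. Fibronectin, FN1 (chromosome 2, 215360440 to 215436172), ran against it, at 137, 121 and 122 CPM in the MHCC-97H libraries and at 8160 to 9150 CPM in the others (-6.09, SE 0.06, adjusted p = 4.2e-12). Collagen VI chains were also lower, COL6A3 at 0 counts against 42.3 and 46.2 CPM and COL6A2 at 1.53 CPM against 383 and 407, as was N-cadherin, CDH2 (22.3 CPM against 124 and 122). The matrix of the 2 profiles therefore differed in kind, with fibrillar and network collagens V and IV in one and fibronectin and collagen VI in the other.

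The transcription factors that drive the mesenchymal transition gave 4 higher and 6 lower of 15 tested (median -0.08, or -0.13 with the GC content and length trend removed). TWIST1 was at 14.5, 13.2 and 12.9 CPM, TWIST2 at 11.3 CPM and FOXC2 at 65.8, 69 and 71.7 CPM under the MHCC-97H label, and all 3 genes had 0 counts in the other 6 libraries, at least 1040-fold higher for TWIST1 and 5300-fold for FOXC2. ZEB2 was at 11.2 CPM against 1.96 and 2.03. SNAI1 (8.59 CPM against 20.1 and 23.6), HMGA2 (1.27 against 14.8 and 10.7) and TBX2 (0.452 against 10.7 and 10.9) were lower, as were the lowly expressed PRRX1 and KLF8.

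Among 32 tested genes of epithelial adhesion 16 were lower and 9 higher (median -0.90). The junction proteins OCLN (0.314 CPM against 9.5 and 8.46), CGN (0.507 against 37.2 and 38.4), TJP1 (4.3 against 53.7 and 53.2) and DSP of the desmosome (66.5 against 894 and 930) were lower, and the claudins CLDN7 (102 against 8.4 and 7.79) and CLDN1 (19.4 against 3.3 and 3.4) were higher. MAL2, an apical sorting protein, was at 9.1 CPM with 0 counts in the other 6. Integrins gave 5 higher and 6 lower of 17, near the shares over all genes tested (26.0% and 30.4%). With the trend on GC content and length removed 8 were higher. ITGA5, the fibronectin receptor chain, was at 3170 CPM against 565 and 620, and ITGAV (50.5 against 354 and 352) and ITGA6 (28.3 against 182 and 179) were lower. COL7A1, the anchoring fibril collagen of squamous epithelium, was at 1540 CPM against 0.395 and 0.336. Of the tetraspanins CD81 was at 168, 168 and 175 CPM with a single count in the other 6 libraries.

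HOX genes, which record position along the body axis and are known to stay set in cell lines, were higher under the MHCC-97H label in 24 of 31 tested cases and lower in 4 (median 3.80). Posterior members were among those with the widest differences. HOXC10 (chromosome 12, 53985065 to 53990279) was at 448, 456 and 454 CPM against 0.905 to 1.64 CPM in the other 6 libraries (8.41, SE 0.13, adjusted p = 5.7e-11). HOXC11 (80.4 CPM against 0.228 and 0.316), HOXC13 (77.7 against 0 and 0.0183), HOXA13 (61.4 against 0.36 and 0.23) and HOXB9 (39.6 against 0.0188 and 0.0183) followed. The 4 lower members were HOXA2, HOXA3 (1.65 CPM against 23.5 and 18.6), HOXA6 and HOXC12. HOXA11 was high in both profiles, at 48.3 CPM against 31.7 and 31.7. Sums over the list ran from 969 to 986 CPM under the MHCC-97H label and from 71.5 to 99.4 CPM in the others.

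**Figure D3:**
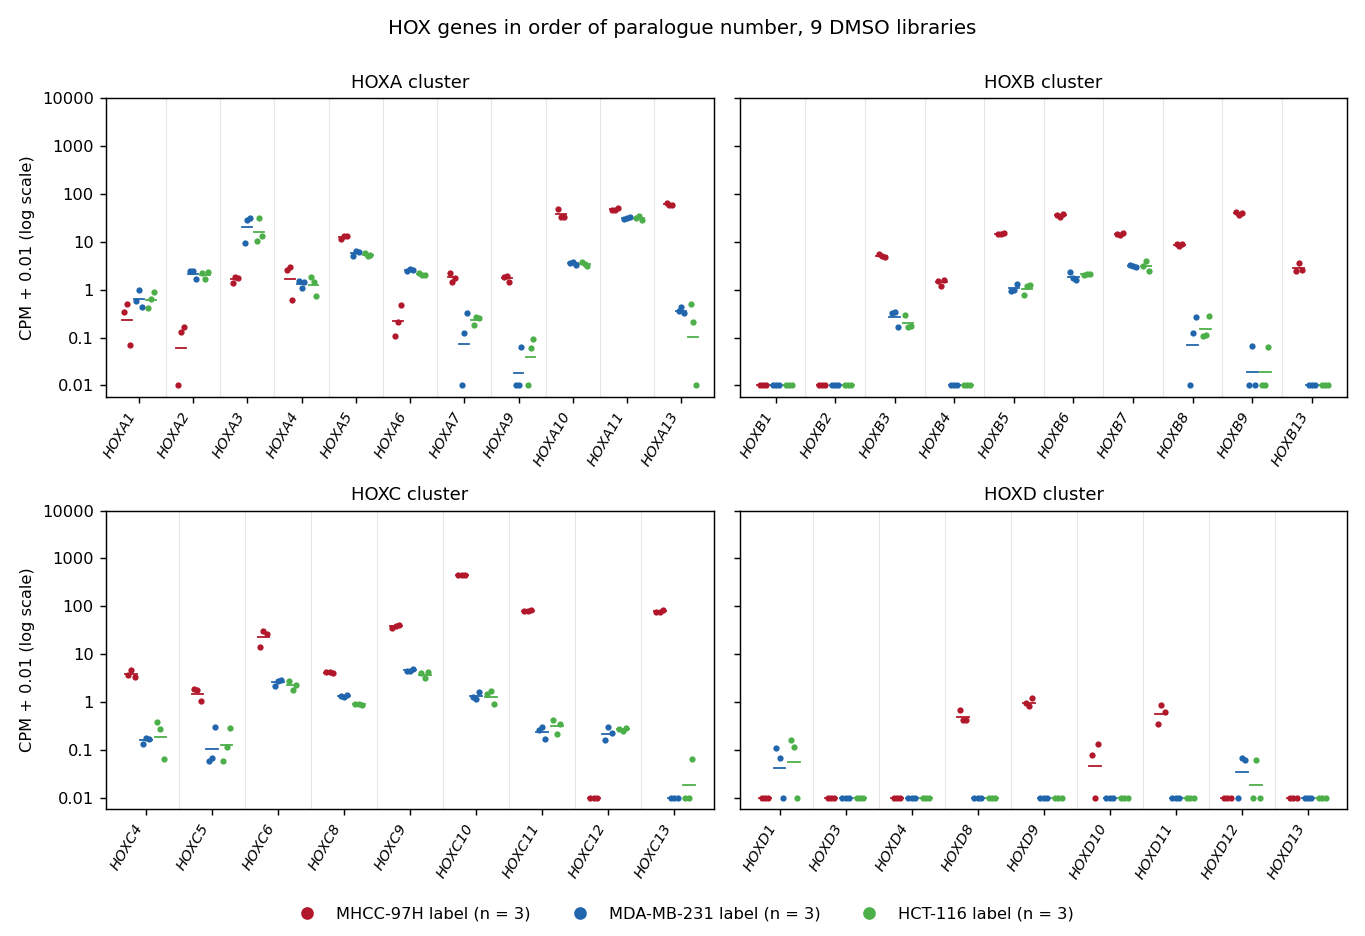
HOX genes of the 4 clusters in order of paralogue number, in each of the 9 DMSO libraries on a log axis of CPM + 0.01, with 0.01 marking a count of 0. Points are libraries and short lines means of the log values. HOXC9 to HOXC13 except HOXC12, HOXA13, and HOXB9 are far higher under the MHCC-97H label, while HOXA2, HOXA3 and HOXA6 are lower.

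Other positional factors gave 16 higher and 9 lower of 27 (median 1.99). IRX3 (56.5 CPM) and FOXF2 (26.3 CPM) had 0 counts in the other 6 libraries, and FOXD1 was at 76.3 CPM against 0 and 0.0171 and FOXF1 at 33.6 CPM against 0 and 0.0171. SOX2, a factor of stem cells and foregut, was the converse, with 0 counts in the MHCC-97H libraries and 70.5, 73.7, 73.5, 72.8, 70.1 and 68.2 CPM in the other 6 libraries. Cancer-testis antigens, germline genes that tumours switch on, were found in both profiles, 9 higher and 5 lower of 15 tested. MAGEA1 (41.7 CPM) and CT83 (72.9 CPM) had 0 counts in the other 6, while SSX1 was at 0.0205 CPM against 191 and 199. Reads of GAGE1, MAGEA3 and MAGEA6 could come from near-identical copies, so these genes were left out.

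Of 13 listed blood genes, which mark cells that a pure culture should lack, 7 were tested, with 4 higher and 3 lower. PTPRC, the leukocyte marker, had 0 counts under the MHCC-97H label and was at 0.241 and 0.418 CPM in the others. LCP1, an actin bundler of leukocytes known to be switched on in carcinoma lines, was at 247 CPM against 1.69 and 2.09. Of 5 tested endothelial genes 3 were lower, among them PECAM1 (0.642 CPM against 5.37 and 5.43), and 2 were higher. Genes of fibroblasts and stellate cells gave 5 higher and 3 lower of 10 tested. PDGFRB of stromal cells was at 2.39 CPM against 0.0608 and 0.0697. The fetal liver marker AFP had 0 counts against 0.824 and 0.891 CPM, and the fetal RNA-binding proteins IGF2BP1 (41.2 CPM against 111 and 113) and IGF2BP3 (18.7 against 106 and 122) were lower, within a list of 10 tested oncofetal genes of which 7 were lower and 1 higher.

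Glycolysis genes were mostly higher under the MHCC-97H label, 14 of 25 at 2-fold against 2 lower (median 1.16). Hexokinases commit glucose to the cell, and HK2 differed more than any other member of the list. HK2 (chromosome 2, 74833981 to 74893359) was at 2820, 2890 and 2910 CPM in the MHCC-97H libraries and at 1.21 to 2.44 CPM in the other 6 libraries (10.49, SE 0.15, adjusted p = 4.6e-11). HK1, the ubiquitous form, was at 905 ± 34.9 CPM against 307 ± 1.59 and 333 ± 23.7 CPM (1.50, SE 0.05). The glucose transporter SLC2A1 was at 1740, 1740 and 1810 CPM against 477 to 591 CPM (1.78, SE 0.04, adjusted p = 5.4e-10), while its relative SLC2A3 (33.8 CPM against 122 and 129) and the phosphofructokinase regulator PFKFB3 (90.9 against 260 and 289) were the 2 lower members. Further down the pathway ALDOA (1.69), GAPDH (1.22), PGK1 (1.45) and PGAM1 (1.35) were all higher. The pyruvate kinase PKM was at 5330 CPM against 4470 and 4710 (0.21, and -0.06 scaled by library totals). Summed over the list the levels were 70700 to 76900 CPM against 32500 to 38200 CPM.

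The study concerns skipping of an exon of the kinase SLK and the glycolytic enzyme enolase 1, so both genes are given with the other enolases and SF3B1. ENO1 (chromosome 1, 8861000 to 8879250) was at 6390, 10600 and 6670 CPM under the MHCC-97H label, 4520, 4550 and 4830 CPM in the MDA-MB-231 libraries and 4630, 5390 and 4810 CPM in the HCT-116 libraries (0.72, SE 0.15, adjusted p = 0.0015). Every library labelled MHCC-97H lay above the rest, 1 of them far above the other 2. In the H3B-8800 libraries the difference was -0.40. The muscle form ENO3 was at 395, 258 and 270 CPM against 1.04 to 1.57 CPM (7.86, SE 0.18, adjusted p = 5.3e-10). SLK (chromosome 10, 103967201 to 104029233), was at 31.9, 23.4 and 25.3 CPM against 134 to 163 CPM in the other 6 (-2.49, SE 0.12, adjusted p = 3.5e-08). SF3B1 (chromosome 2, 197389784 to 197435091) was at 234, 206 and 199 CPM against 259 to 361 CPM (-0.61, SE 0.11, adjusted p = 7.9e-04), but at 0.29 once a trend on GC content and length was removed. Counts per gene do not show which exons of SLK were used.

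Respiratory genes went in opposite directions by genome. Of 30 nuclear genes of oxidative phosphorylation 21 were higher at 2-fold and 0 lower (median 1.50), such as COX7C of complex IV at 569, 400 and 614 CPM against 40.5 to 82.6 CPM (2.88, SE 0.21, adjusted p = 1.2e-06) and UQCRH of complex III (606 CPM against 98.9 and 97.7). All 13 mitochondrially encoded genes were lower, with a median of -2.17, and MT-CO1, a core subunit of complex IV, was at 5180, 4920 and 5060 CPM against 18800 to 21800 CPM (-1.97, SE 0.05, adjusted p = 7.8e-10). Their share of all counts was 1.17% ± 0.0401 under the MHCC-97H label (n = 3) and 6.3% ± 0.294 in the other libraries (n = 6). An exact two-sided permutation test gave p = 0.024 for this share, the smallest that 3 against 6 libraries allow. The share of cytosolic ribosomal protein genes was 10.7% ± 0.232 against 4.4% ± 0.0753 (n = 3 and 6; exact permutation p = 0.024 as well), and 56 of those 77 genes were higher and 0 lower. The ribosomal and respiratory genes are short, and short genes were higher more often over the whole table: in the shortest of 4 equal bins of length 38.8% were higher at 2-fold and 21.4% lower, against 16.3% and 41.8% in the longest. With a trend on length and GC content removed the medians were 1.44 for oxidative phosphorylation and 1.58 for the ribosomal proteins, against 0.10 over all genes.

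The citric acid cycle list gave 12 higher and 4 lower of 31 (median 0.76), but 7 higher and 8 lower when libraries were scaled by their totals. SDHA, which also sits in complex II, was at 977 CPM against 304 and 323, and SDHC (1.83) and the pyruvate dehydrogenase kinase PDK1 (1.81) were higher. The cytosolic NADPH sources IDH1 (-2.16) and ME1 (-1.76) were lower. The pentose phosphate pathway gave 4 higher and 3 lower of 10 (median -0.13, or 0.09 with the GC content and length trend removed). The dehydrogenase PGD (119 CPM against 794 and 798) and the transketolase TKT (1180 against 2400 and 2470) were lower, and the ribokinase RBKS (1.57), the phosphoribosyl pyrophosphate synthetase PRPS1 (1.32) and the lactonase PGLS (1.28) were higher.

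**Figure D4:**
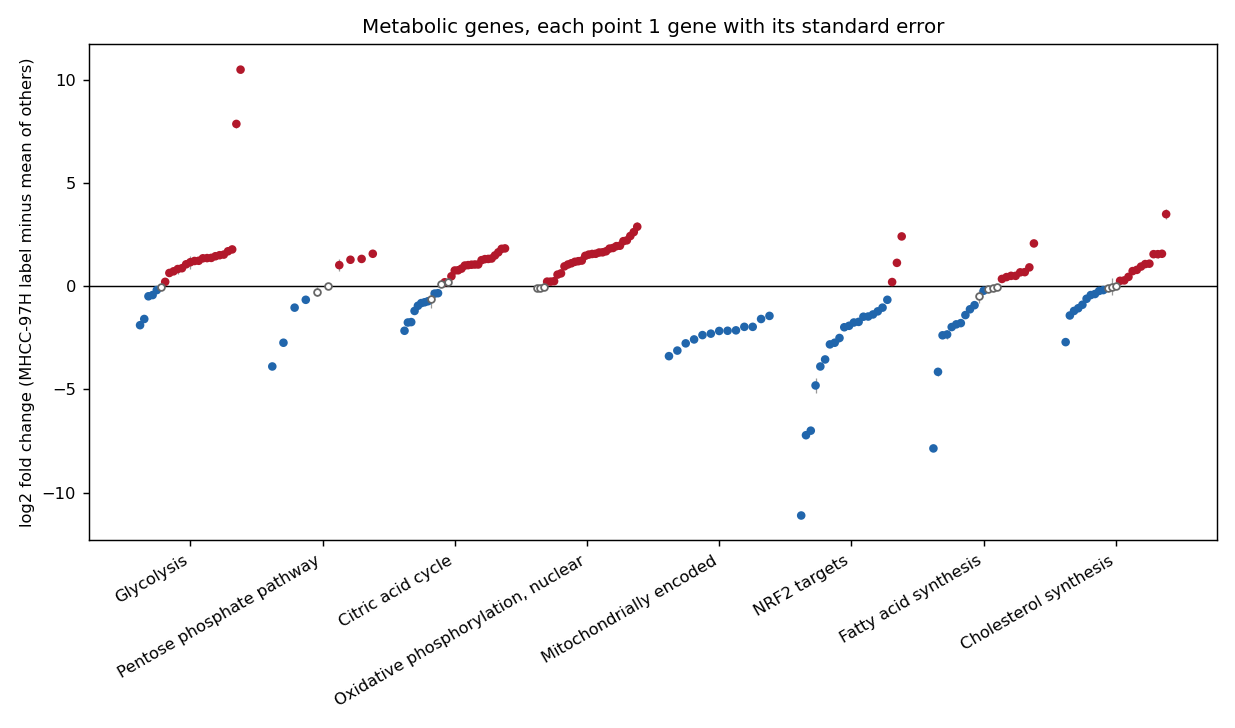
Log2 fold change of the MHCC-97H label minus the mean of the other labels for the tested members of 8 metabolic lists, sorted within each list. Bars are standard errors, filled points are called (red higher, blue lower), open points are not, and members at 0 counts on one side are left out. Glycolysis and nuclear oxidative phosphorylation lie mostly above 0, and mitochondrially encoded genes and NRF2 targets mostly below.

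Genes under the antioxidant factor NRF2 and enzymes of detoxification were among the lists with the highest share lower. Of 23 NRF2 targets 19 were lower and 2 higher (median -1.92). NQO1, a quinone reductase that is a standard readout of NRF2 (chromosome 16, 69706996 to 69726951), was at 164, 176 and 176 CPM against 1170 to 1260 CPM (-2.82, SE 0.04, adjusted p = 3.3e-11). The aldo-keto reductase AKR1B10, common in liver and lung cancers, was at 0.33, 0.322 and 0.184 CPM against 584 to 647 CPM (-11.11, SE 0.11, adjusted p = 4.2e-12), and the glutathione peroxidase GPX2 had 0 counts against 227 and 220 CPM. TXNRD1 (148 CPM against 795 and 888) and the cystine importer SLC7A11 (2.15 against 68.8 and 54.7) followed. The 2 higher members were PRDX1 (1.13) and the ferritin heavy chain FTH1. AKR1C1 (7.56 against 971 and 964 CPM) has near-identical copies, so its level is uncertain. Of 36 detoxification genes 24 were lower and 7 higher (median -2.34). ALDH1A1, a retinal dehydrogenase, had 0 counts against 844 and 831 CPM, CYP24A1 of vitamin D breakdown was at 0.022 CPM against 92.5 and 93.8 and the drug exporter ABCB1 had 0 counts against 31 and 29 CPM. CES1, the main carboxylesterase of liver, had 0 counts against 850 and 909 CPM. GSTP1 (594 CPM against 89 and 87.1) and NNMT (16.6 against 0.0376 and 0.0162) were higher.

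Metal handling differed in its storage genes. FTH1 was at 14000, 14300 and 16400 CPM against 2460 to 3170 CPM (2.41, SE 0.07), with 62.4% of its exons shared with BEST1 and many processed copies in the genome, while the light chain FTL was at 2410, 2480 and 2550 CPM against 8970 to 10400 CPM (-1.92, SE 0.05). The heavy chain oxidises iron and the light chain helps to mineralise it, and the 2 genes differed in opposite directions. TFR2, a transferrin receptor of hepatocytes and red cell precursors, was at 61.6, 70.5 and 72.2 CPM with 0 counts in the other 6, and TFRC was lower (88.3 CPM against 339 and 377). The metallothioneins MT1X (873 CPM against 11.6 and 12.7) and MT2A (619 against 5.83 and 5.76) were higher, and the iron exporter SLC40A1 had 0 counts against 51.1 and 50.4 CPM.

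Genes of fatty acid and triglyceride synthesis were more often lower than higher, while cholesterol synthesis and amino acid metabolism were mixed. Of 26 genes of fatty acid and triglyceride synthesis 11 were lower and 2 higher (median -0.35): FASN (455 CPM against 1750 and 1830), ACACA (51 against 179 and 173), the desaturase FADS2 (20.9 against 359 and 383) and MTTP, which loads lipoproteins (0.345 against 77.7 and 82.9). SCD5 was at 18.5 CPM with 0 counts in the other 6. Cholesterol synthesis gave 6 higher and 4 lower of 25, beside 26.0% and 30.4% over all genes tested. Its median was -0.01, or 0.25 with the GC content and length trend removed. INSIG1, a sterol sensor, was at 519 CPM against 49.4 and 43 and SQLE at 30.9 CPM against 207 and 196. MTHFD2, a mitochondrial folate enzyme of proliferating cells, was at 242, 201 and 226 CPM and had 0 counts in the other 6 libraries, at least 17200-fold higher, with 27.2% of its exons shared with SLC4A5. PYCR1 of proline synthesis (89 CPM against 0.0338 and 0.156) and SLC1A1 (47.3 against 2.34 and 2.38) were higher, and PRODH, which breaks proline down, was lower (0.818 against 119 and 121). The liver glycogen phosphorylase PYGL was at 678 CPM against 93.3 and 100, and the brain form PYGB at 4.84 CPM against 638 and 614.

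Growth factor receptors differed in both directions, more of them lower under the MHCC-97H label. Of 25 receptor tyrosine kinases tested 12 were lower and 5 higher (median -0.73). EGFR (250 CPM against 268 and 279; adjusted p = 0.23) and AXL (92.4 against 90.6 and 85.8; adjusted p = 0.17) were not called, and their libraries overlapped. EGFR was called at 0.75 with the GC content and length trend removed (adjusted p = 6.2e-07) and at -0.41 with scaling by library totals (adjusted p = 0.0057). AXL was called at -0.21 with library totals (adjusted p = 8.5e-04) and at 0.11 without HCT-116 replicate 2 (adjusted p = 0.016). MET, the receptor of hepatocyte growth factor (chromosome 7, 116672390 to 116798386), was at 93, 82.7 and 84.5 CPM in the MHCC-97H libraries, and at 7620, 7330 and 6700 CPM and 7670, 5770 and 7610 CPM in the MDA-MB-231 and then the HCT-116 libraries (-6.36, SE 0.13, adjusted p = 3.3e-10). FGFR1 was the reverse, at 84.5, 92 and 89.7 CPM against 0.154 to 0.564 CPM (8.02, SE 0.18, adjusted p = 3.1e-10). The WNT co-receptors ROR1 and ROR2 also divided, ROR1 at 0.0268 CPM against 48 and 44.8 and ROR2 at 61.1 CPM with 0 counts in the other 6. KDR, the VEGF receptor, had 0 counts against 14.2 and 15.7 CPM. Among ligands, of which 9 were higher and 12 lower of 23 (median -1.27), TGFA (54.7 CPM against 2.27 and 1.95), VEGFC (40.9 against 0) and LIF (129 against 25.1 and 25) were higher, and EGF (0 against 8.3 and 7.72), PDGFA (6.47 against 70.4 and 72.2) and KITLG (0.632 against 27.6 and 27.2) were lower. CXCR4, the chemokine receptor of metastatic homing, was at 429, 449 and 453 CPM with 0 counts in the other 6 libraries, at least 34200-fold higher.

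WNT output genes were low under the MHCC-97H label, 13 of 17 lower and 3 higher (median -3.79). AXIN2, the feedback gene used as a readout of beta-catenin (chromosome 17, 65528563 to 65561647; 25.2% of its exons shared with AC004805.1), was at 0.165, 0 and 0.154 CPM against 45.8 to 48.2 CPM (-8.64, SE 0.28, adjusted p = 3.2e-09). LGR5 of intestinal stem cells had 0 counts against 9.42 and 8.65 CPM, NKD1 was at 0.041 CPM against 21.4 and 21, TCF7 at 0.101 CPM against 14.3 and 17.7, and RNF43 at 5.28 CPM against 58.6 and 59.4. The exceptions, of which 1 was left with the trend on GC content and length removed, were LEF1 (3.86 CPM against 0.187 and 0.232), NOTUM (1.81) and NKD2 (1.50). CCND1, a cyclin that several pathways raise, was at 20.8, 23 and 23.7 CPM against 374 to 395 CPM (-4.09, SE 0.06, adjusted p = 1.8e-11).

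TGF-beta and BMP genes gave 14 lower and 4 higher of 27 (median -1.04, or -0.55 with the GC content and length trend removed). The receptor TGFBR2 (14.8 CPM against 166 and 162), the ligands TGFB2 (4.9 against 105 and 108) and BMP4 (0 against 27.2 and 21), the signal carrier SMAD3 (17.5 ± 1.3 against 287 ± 7.35 and 299 ± 7.37) and the target ID2 (5.56 against 46.2 and 48.3) were lower. The BMP antagonist NOG was at 2.45 CPM with 0 counts in the other 6. Notch genes gave 8 higher and 3 lower of 14 (median 1.74, or 0.85 with the GC content and length trend removed). NOTCH3 (chromosome 19, 15159038 to 15200981) was at 371, 376 and 396 CPM against 0 to 0.226 CPM (12.20, SE 0.29, adjusted p = 8.0e-10), and the ligand JAG1 was at 3.27, 4.39 and 3.9 CPM against 244 to 259 CPM (-6.02, SE 0.09, adjusted p = 3.6e-11). NOTCH3 and JAG1 were thus high in different profiles. The ligand JAG2 (62.5 CPM against 19.5 and 18.8) and the target HES4 (65.4 against 7.7 and 6.89) went with NOTCH3, and HES1 (34.6 against 84 and 85.5) with JAG1.

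Genes induced by ERK gave 10 lower and 3 higher of 21 (median -0.74). The feedback inhibitors SPRY4 (2.98 CPM against 25.6 and 26.5), SPRED1 (9.9 against 83.8 and 85.6) and the factor ETV5 (33.3 against 132 and 135) were lower, and IER3 (2080 against 128 and 126), DUSP5 (384 against 95.7 and 96.9) and FOSL1 (198 against 52.1 and 43.8) were higher. AP-1 subunits, dimer partners that respond to growth and stress signals, were higher in 9 of 11 cases and lower in 0 (median 2.05, or 1.29 with the GC content and length trend removed). JUN (chromosome 1, 58780788 to 58784327) was at 993, 1000 and 1030 CPM against 184 to 201 CPM (2.38, SE 0.03, adjusted p = 2.0e-11), with JUNB (1.55), JUND (1.67) and ATF3 (2.93) alongside. The AP-1 letters TGANTCA were in 4.77% of the promoters of higher genes, 5.85% of lower genes and 4.73% of all. YAP and TEAD output genes were mixed, 9 higher and 6 lower of 26, with IGFBP3 at 2890, 3070 and 7280 CPM against 5.86 to 9.93 CPM (9.01, SE 0.37, adjusted p = 3.5e-08) and TEAD1 at 7.79 CPM against 63.3 and 66.3. Hypoxia-inducible genes gave 13 higher and 4 lower of 23 (median 1.53), among them EGLN3 (66.7 CPM against 1.21 and 0.98) and P4HA1 (1470 against 222 and 241).

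**Figure D5:**
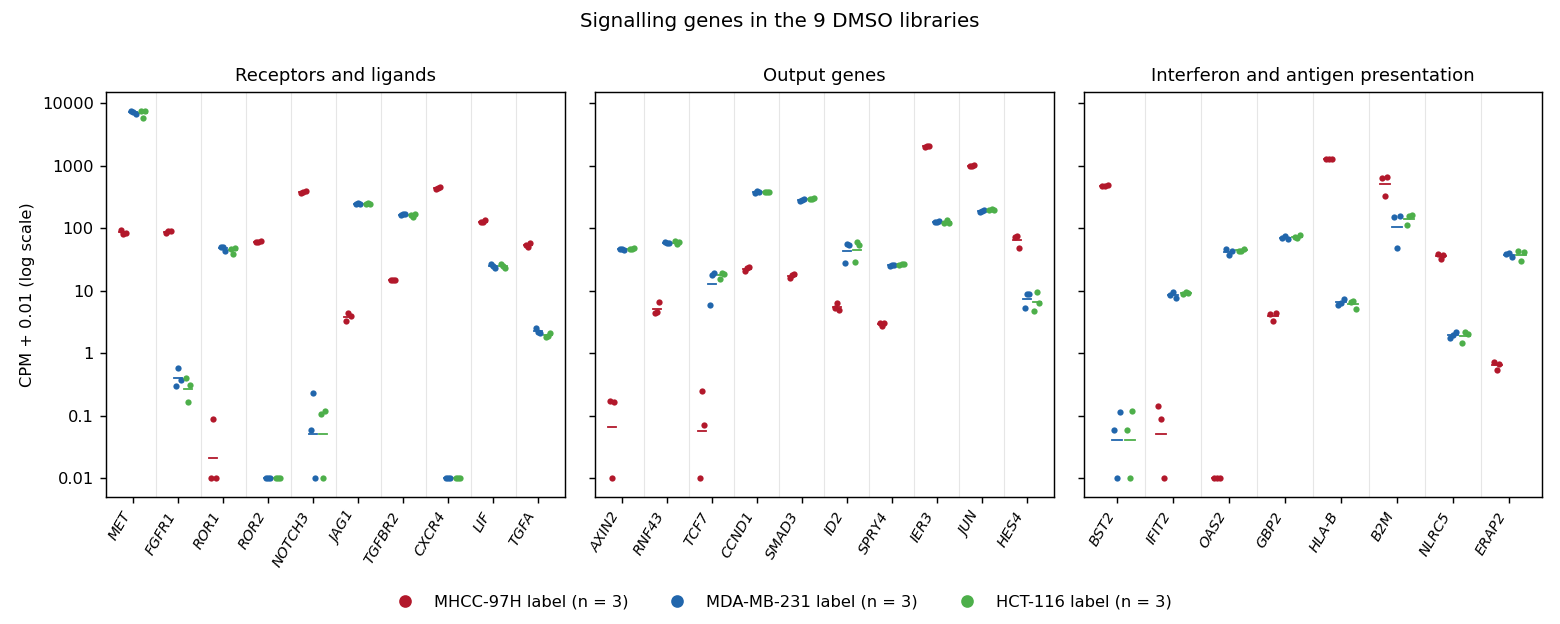
Level of signalling genes in each of the 9 DMSO libraries on a log axis of CPM + 0.01, with 0.01 marking a count of 0. Points are libraries, coloured by label, and short lines are means of the log values. MET and JAG1 are high where FGFR1 and NOTCH3 are near 0, and BST2 is near 0 in all 6 libraries labelled MDA-MB-231 or HCT-116.

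Interferon genes were split between the profiles. Of 23 tested, 14 were lower and 8 higher (median -1.58, or -0.95 with the GC content and length trend removed). Lower were OAS2 (0 against 42.2 and 44.6 CPM), IFIT2 (0.0709 against 8.73 and 9.23) and GBP2 (4 against 71.6 and 73.9). BST2, the tethering protein of viruses, was the opposite, at 485 CPM against 0.0512 and 0.0527. Genes of antigen presentation by MHC class I were higher in 11 of 15 cases and lower in 2 (median 2.42). HLA-B (chromosome 6, 31269491 to 31357188) was at 1280, 1290 and 1310 CPM against 5.07 to 7.55 CPM (7.65, SE 0.10, adjusted p = 2.2e-11), and the class I transactivator NLRC5 at 36.8 CPM against 1.97 and 1.88. HLA genes vary between people and map with error to a single reference, so differences of level between them are uncertain. The trimming enzyme ERAP2 was lower (0.642 CPM against 37.9 and 38.3). Of 25 inflammatory genes 8 were higher, such as CXCL8 (381 CPM against 8.08 and 7.77) and IL11 (26.9 against 0.203 and 0.478), and 6 lower, such as ICAM1 (95.2 against 530 and 589) and CXCL5 (0 against 45.5 and 46.8).

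Cell cycle inhibitors and p53 targets gave 13 higher and 3 lower of 25 (median 1.16). Besides CDKN2A, the imprinted inhibitor CDKN1C was at 237 CPM against 1.9 and 2.2, and the p53 target PHLDA3 at 59.2 CPM against 0 and 0.0171. TP53INP1 was lower (2.38 against 45.6 and 45.9). Mitosis and replication genes gave 6 higher and 11 lower of 33, beside 26.0% and 30.4% over all genes tested. Their median was -0.05, or 0.30 with the GC content and length trend removed. MKI67, the proliferation marker Ki-67, was at 65.8, 42.7 and 49.2 CPM against 428, 403, 374, 446, 282 and 441 CPM (-2.91, SE 0.20, adjusted p = 9.3e-07), and CENPF (-3.02), CENPE (-3.56) and TOP2A (-2.60) were lower. RRM2 of nucleotide synthesis (1.82) and the cyclin CCNE1 (2.32) were higher, so the list did not move as one.

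The genes of largest difference, called in both single comparisons and above 10 CPM on average, added names outside the lists. On the high side BASP1, a membrane protein of growing axons (1410 CPM), the myosin MYO1G (759 CPM), the matrix protein SMOC1 (541 CPM), the peroxidase PXDN (430 CPM), the cold shock protein YBX3 (289 CPM), the serine protease PRSS21 (174 CPM) and the WNT receptor FZD10 (168 CPM) each had 0 counts in the other 6 libraries. On the low side the matrix proteoglycan VCAN (0 against 237 and 227 CPM), the protease MMP7 (0 against 185 and 194) and the adhesion molecule NRCAM (0 against 187 and 183) had 0 counts under the MHCC-97H label. Per length, TMSB10, GAPDH and FTH1 led the MHCC-97H profile, at 12100, 7570 and 7350 RPKM, the CPM per kilobase of exon, and MT-CO1 (12800), FTL (10700) and MT-ATP8 (9330 RPKM) led the other.

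Between the MDA-MB-231 libraries and the HCT-116 libraries the 6 called genes were all present in both. RNF138, a ubiquitin ligase, was at 12, 11.2 and 11 CPM against 27.3, 28.9 and 28.4 CPM (MDA-MB-231 minus HCT-116, -1.31, SE 0.08, adjusted p = 3.3e-04). PNKD was at 119, 122 and 109 CPM against 58.3, 59.6 and 62.1 CPM (0.96, SE 0.06, adjusted p = 3.3e-04), and the thiamine transporter SLC19A2 at 39.9, 39.4 and 34.6 CPM against 16.5, 12.5 and 16.7 CPM (1.32, SE 0.12, adjusted p = 0.0059). MYADM (-0.66), the coat protein SEC24C (-0.55) and the serine enzyme PSAT1 (0.42) differed by less. None of the 6 belongs to the lineage lists. The count was 31 with DESeq2, 0 against a change of 2-fold (glmTreat) and 5 to 15 when 1 library was left out, reaching 15 without HCT-116 replicate 3.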

How the data were processed

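RNA of 18 libraries was sequenced, and the 9 DMSO libraries were compared, with the other 9 as an alternative. Per the submitters' processing notes, reads were trimmed with fastp and aligned with HISAT2 to GRCh38. The counting tool, annotation, kit and strand setting were not given in the sources used here, so overlapping genes are uncertain. The deposited values are counts per gene, whole numbers with no normalization, for 20263 genes. Symbols were matched to GENCODE 29 for coordinates (20224 matched). Counts were filtered with filterByExpr, scaled by TMM and fitted with edgeR 4.0.16 (R 4.3.3) as 3 group means, with the MHCC-97H label against the mean of the other labels and Benjamini-Hochberg adjustment over all genes tested. The fit was tested on simulated data. Shares of counts were compared with an exact two-sided permutation test (SciPy 1.17.1). Floors of 3 counts cover counting error only. Alternatives used limma 3.58.1, DESeq2 1.42.0, other scalings, filters and left-out libraries.

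Named genes came from a rule: up to 6 called and 2 uncalled members per list, whole lists for liver and gut factors, mesenchymal factors, keratins and mismatch repair, and the 12 widest differences in each direction. Of 261 genes in the text, 68 fell outside it and were chosen after their values were seen. The members and lists were chosen with earlier results of these data known. Some genes and 1 of the motifs are not reported here.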

Additional observations from a re-analysis of the deposited data

How the results depend on the processing

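For the MHCC-97H label, 11528 to 12037 genes were called when 1 library was left out, 11601 against the MDA-MB-231 label alone and 11573 against the HCT-116 label alone, and 6921 against a change of 2-fold (glmTreat). With scaling by library totals the median over all genes was -0.36, and with a removed trend on GC content and length it was 0.10. Between MDA-MB-231 libraries and HCT-116 libraries 5 to 15 genes were called with 1 library left out (10 without MDA-MB-231 replicate 1 or 2, 11 without HCT-116 replicate 1 or 2, 15 without HCT-116 replicate 3), 31 with DESeq2, 0 with glmTreat and 1 in the H3B-8800 libraries. No pairing by replicate number was seen. A correlation other than that of the log2 levels ran from -0.08 to 0.09 for same-numbered libraries of different labels. For differently numbered libraries it ran from -0.10 to 0.09. With 3 libraries per label this check cannot exclude a pairing. With the replicate number as a block 11759 genes were called for the MHCC-97H label and 5 between the other labels.

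Of the named genes, SF3B1, ESR1, EGFR, AXL, PKM and ENO1 changed sign: SF3B1 to 0.29 with the GC content and length trend removed, with or without the block, and to 0.12 in the H3B-8800 libraries; ESR1 to 0.03 with that trend removed, with or without the block; EGFR to 0.75 with that trend removed, with or without the block, and to 0.43 in the H3B-8800 libraries; AXL to -0.21 with library totals and -0.07 in the H3B-8800 libraries; PKM to -0.06 with library totals and -0.27 in the H3B-8800 libraries; ENO1 to -0.40 in the H3B-8800 libraries. The cause was not tested. Left-out libraries gave differences in share of -5.2 to -5.04 percentage points for mitochondrially encoded genes, 6.23 to 6.44 for ribosomal protein genes, -0.113 to 0.126 for the 10 most abundant genes and 3.46 to 3.9 for the 100 most abundant, and -332 to -298 genes at 1 CPM of the total. Without a library labelled MHCC-97H the smallest exact permutation p possible is 0.071. In the H3B-8800 libraries the difference was -1.49 for the 10 and 0.28 for the 100 most abundant genes. With 1 mismatch, chosen after seeing the data, the HNF4 letters were in 5.7% of promoters of lower genes and 4.62% of higher genes. Counts of 0 limit a level to 0.0342 CPM over the MHCC-97H libraries and 0.013 CPM over the other 6.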

Other observations

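The genes that differed between MDA-MB-231 libraries and HCT-116 libraries under DMSO were read in the H3B-8800 libraries as well, scaled over all 18 libraries. RNF138 was at 11.5 CPM in the MDA-MB-231 DMSO libraries and at 28.5 CPM in those given H3B-8800, against 28.5 and 28.1 CPM under the HCT-116 label. PNKD was at 60.6 CPM in the HCT-116 DMSO libraries and at 123 CPM with H3B-8800, against 118 and 119 CPM in the MDA-MB-231 libraries. MYADM was at 210 CPM in the MDA-MB-231 DMSO libraries and between 331 and 354 CPM in the other 3 groups of these labels. PSAT1 was at 93.9 CPM in the HCT-116 DMSO libraries and between 126 and 137 CPM in the other 3 groups. For RNF138, PNKD, MYADM and PSAT1 a single group of the 4 stood apart, the MDA-MB-231 DMSO libraries for RNF138 and MYADM and the HCT-116 DMSO libraries for PNKD and PSAT1. SLC19A2 and SEC24C had the other order of the labels with H3B-8800. SLC19A2 was at 38.4 CPM against 15.4 CPM in the MDA-MB-231 and HCT-116 DMSO libraries and at 19.6 CPM against 33 CPM with H3B-8800, where the MDA-MB-231 libraries were at 32.7, 13.5 and 12.5 CPM. SEC24C was at 110 CPM against 160 CPM under DMSO and at 148 CPM against 111 CPM with H3B-8800. These genes were picked for the difference under DMSO, and the change with H3B-8800 was not tested here.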
